A study of Homo sapiens with 6 samples.

Results

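The antigen receptor loci are the 6 clusters of gene segments from which lymphocytes build immunoglobulins and T cell receptors. Described here are their chromatin loops in HAP1, a human line that is not lymphoid. A loop was taken into the set when at least 1 of its anchors overlapped 1 of 6 hg19 intervals, whatever its strength. These were IGH (chromosome 14, 106.0 to 107.29 Mb), IGK (chromosome 2, 89.1 to 90.3 Mb), IGL (chromosome 22, 22.38 to 23.27 Mb), TRA/TRD (chromosome 14, 22.09 to 23.02 Mb), TRB (chromosome 7, 142.0 to 142.52 Mb) and TRG (chromosome 7, 38.28 to 38.41 Mb). The rule found 61 of the 46849 loops in the list. IGH and IGL held 17 each, TRA/TRD 10, TRB 8, TRG 7 and IGK 2, so no locus was without a loop, and no loop had anchors in 2 of the loci.

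In developing B and T cells the RAG recombinase cuts at signal sequences beside V, D and J segments, and the cut segments are joined to make a receptor gene. Loop extrusion by cohesin, halted at sites bound by CTCF, brings distant V segments near the recombination centre around the J segments. Enhancers near the constant genes make that centre active in the lymphoid lineage. In cells outside the lineage the segments normally stay in germline order and the receptor genes are silent.

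The loci differ in size and in the order of their parts, as the GRCh38 gene table of RefSeq shows. IGH, which encodes immunoglobulin heavy chains, has 127 V segments there (79 of them pseudogenes), 27 D, 9 J and 11 constant genes. Its constant genes lie at the lower coordinates, in the order IGHA2, IGHE, IGHG4, IGHG2, IGHGP, IGHA1, IGHEP1, IGHG1, IGHG3, IGHD and IGHM. IGK and IGL encode the light chains. IGK has 76 V and 5 J segments and its 1 constant gene, IGKC, at the lower end. IGL has 73 V segments, and at its upper end 7 J segments that alternate with 7 constant genes. The T cell receptor alpha and delta genes share 1 stretch with 57 V, 3 D and 65 J segments, which ends at higher coordinates with TRAC, the alpha constant gene. TRB, for the beta chain, ends with its 2 constant genes and the segment TRBV30. TRG, for the gamma chain, is the smallest, with 14 V and 5 J segments and 2 constant genes at its lower end. Genes of other kinds lie among the segments: VPREB1 (part of the surrogate light chain of B cell precursors), PRAME (a tumour antigen), ZNF280A, ZNF280B, GGTLC2 and IGLL5 in IGL, the trypsinogen genes PRSS1 and PRSS2 in TRB, and olfactory receptor genes in TRA/TRD.

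The contacts were measured by Micro-C, in which micrococcal nuclease cuts crosslinked chromatin before ligation. All 6 replicates were wild-type HAP1 with no treatment named. HAP1 is a near-haploid line that came from KBM-7 leukaemia cells of myeloid origin, and the cells used were the diploid ones, sorted by their DNA stain. Nothing in the labels says whether the replicates were separate cultures. The 6 replicates form 1 group and are pooled in 1 deposited loop list. There is therefore no spread between replicates, and no difference between loci was tested. The list holds only called loops, so a stretch without an anchor is one without a call. Poisson intervals given here cover counting error only, and those of a median cover the spread among the loops of a locus. Neither covers spread between replicates. The data hold no expression values, so the cell type was not checked against marker genes. Positions are hg19 and 1-based, and no hg19 annotation was at hand, so anchors are placed by their distance from an end of a locus and not by gene.

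Each loop comes with an observed contact count and with the count expected from the donut-shaped surroundings of its pixel, and its strength is the ratio of the first to the second. Over the whole list the median ratio was 3.55 (quartiles 2.59 and 5.41), the median count 31 and the median span 160 kb. The 61 loops had a median ratio of 4.51, a median count of 25 (range 9 to 184) and a median span of 160 kb (range 35 to 1150 kb). Without IGH the median ratio of the other 44 was 3.53, close to that of the list.

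Loop density differed widely between the loci. IGH carried 13.2 loops per Mb (exact Poisson 95% interval 7.68 to 21.1), IGL 19.1 (11.1 to 30.6), TRA/TRD 10.8 (5.16 to 19.8) and TRB 15.4 (6.64 to 30.3). IGK carried 1.67 (0.202 to 6.02), and its interval lay below those of IGH, IGL, TRB and TRG. Such a gap is not a test, since loops that share anchors are not independent counts. In TRG the 7 loops made 53.8 per Mb (21.6 to 111), but its interval is short and 6 of the 7 loops have only 1 anchor in it. Loop ends, counted singly, depend less on the length of an interval. They numbered 61.5 per Mb in TRG, 33.7 in IGL, 26.9 in TRB, 26.4 in IGH, 17.2 in TRA/TRD and 3.33 in IGK. Across 2806 windows of 1 Mb that held any anchor, the median was 33 (quartiles 20 and 45, 5th percentile 5). IGL, TRB and IGH were thus within the quartiles, TRA/TRD was under the lower one, and IGK was under the 5th percentile. TRG was above the upper quartile, also of windows of its own length (53.8). It held only 8 loop ends, and 7 in a stretch of its length already make 53.8 per Mb.

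TRA/TRD held fewer loop ends per Mb than both of its flanks, and IGH and IGK fewer than the flank below them. The stretch of equal length below IGH had 59.7 loop ends per Mb against 26.4 inside. TRA/TRD, with 17.2, lay between flanks of 50.5 and 76.3. IGK had 20 in its lower flank and 0 in its upper one, where the next anchor came 1430 kb beyond the interval. Whether reads could be placed in that upper flank was not checked. The order was the opposite on the lower sides of IGL and TRB. IGL had 33.7 against 6.74 below it, and TRB 26.9 against 3.85, while their upper flanks had 39.3 and 34.6. Below IGL the rate rested on 4 loops (exact Poisson interval of the count 1.09 to 10.2), against 17 inside (9.90 to 27.2). Below TRB there was 1 loop (0.0253 to 5.57), against 8 inside (3.45 to 15.8). Both pairs of intervals overlapped, so the opposite order rests on few loops and is not a clear difference. The intervals of IGK and TRA/TRD overlapped those of their lower flanks as well. No anchor lay above IGH, since the last anchor of chromosome 14 in the list ended at 107135000, inside the locus. How much of that upper stretch exists on the chromosome was not checked, so its 0 is not read as a lack of loops. Flanks of TRG had 53.8 (lower) and 23.1 (upper).

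**Figure D1:**
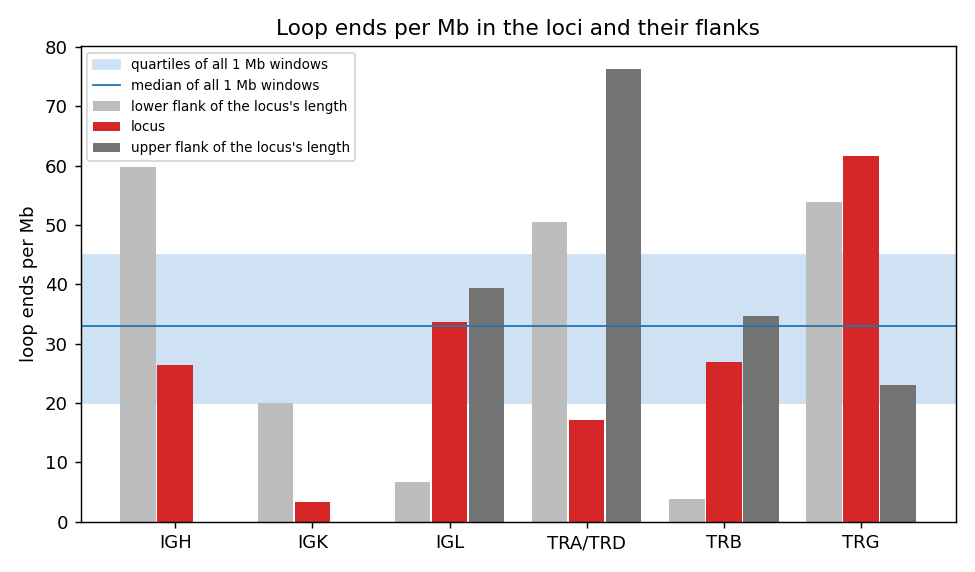
Loop ends per Mb (vertical axis) in each locus (red) and in the stretches of the same length on its lower side (light grey) and upper side (dark grey), with the median (33, line) and quartiles (20 and 45, band) of all 1 Mb windows that hold an anchor. IGK, at 3.33, is the lowest of the 6 loci and TRG, at 61.5, the highest. The upper stretch of IGH lies above the last anchor of its chromosome in the list, so its empty bar is not a measured lack of loops.

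How many loops stay inside depends on the length of the interval. It was 1290 kb in IGH and 130 kb in TRG, with median spans of 190 and 210 kb. All 17 IGH loops kept both anchors inside the locus. None could cross its upper end, since the last anchor of chromosome 14 in the list lies inside it. None crossed the lower end, although the loop-rich flank begins there with an anchor that touches the interval. In IGL 13 of 17 loops stayed inside, in TRA/TRD 6 of 10, in TRB 6 of 8, in TRG 1 of 7 and in IGK both. The loops that left IGL and TRB all crossed the upper end, the side of the constant genes. Those of TRA/TRD crossed the upper end in 3 cases and the lower in 1. In TRG 5 crossed the lower end, again the constant gene side, and 1 the upper. For IGL, TRB, TRG and TRA/TRD the flank on the constant gene side was also the one with more loop ends. Outer ends of the crossing loops that fall in a flank are part of its count, so the 2 are not independent. IGK too had more loop ends per Mb in its flank on that side (20 against 0), but no loop crossed there.

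**Figure D2:**
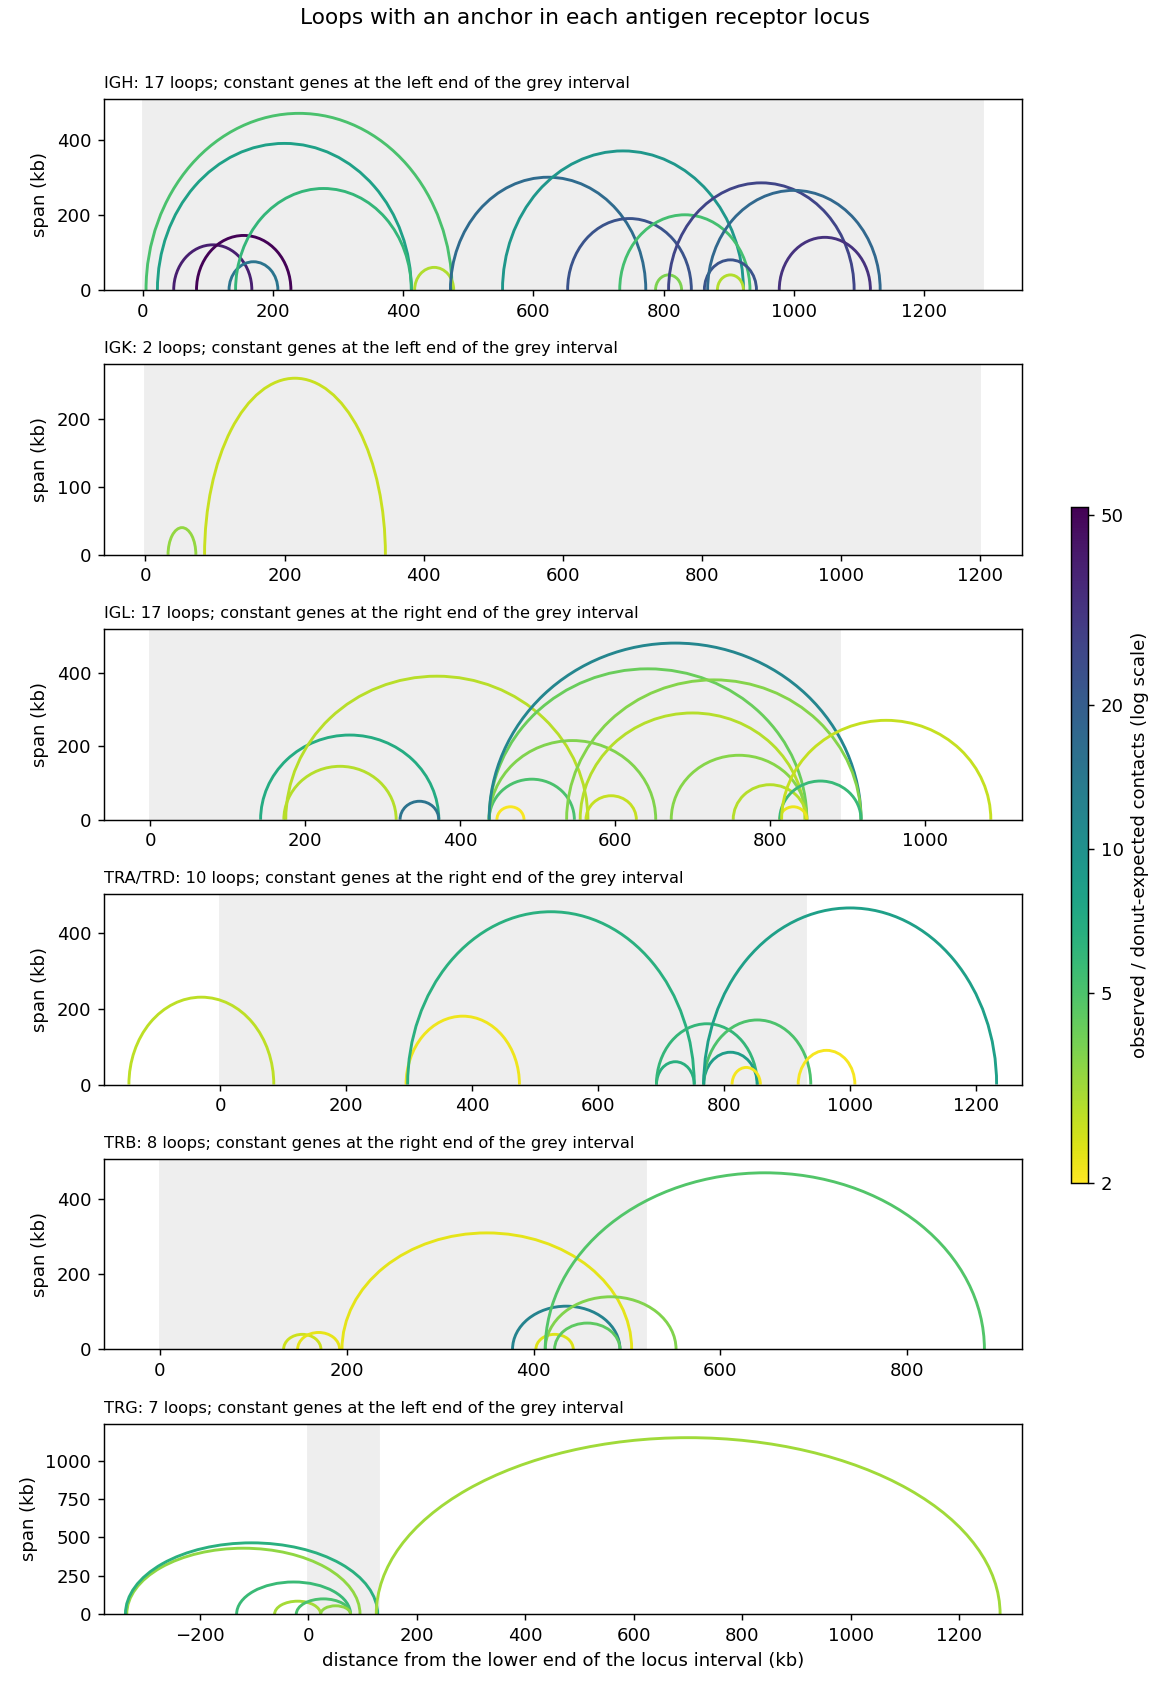
Each arc is a loop drawn between its anchor midpoints, by distance from the lower end of the locus interval (horizontal axis, kb), with its height equal to its span (vertical axis, kb) and its colour giving the ratio of observed to expected contacts on a log scale. The grey area is the locus, and axes differ between panels. IGH arcs stay in the grey area and include the darkest of the 6 panels (ratios up to 51.1), IGK has 2 arcs near its lower end, and 6 of the 7 TRG arcs leave the locus.

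IGH had the highest median ratio of the 6 loci. This median ratio was 14.8 (binomial 95% interval of the median 5.30 to 22.6), against 3.60 in IGL (2.83 to 5.09), 5.51 in TRA/TRD (2.13 to 8.26), 3.15 in TRB (2.25 to 12.0), 3.45 in TRG (3.12 to 6.60) and 3.01 in IGK, where only 2 values stand behind it. The IGH interval lay above that of IGL and overlapped those of TRA/TRD, TRB and TRG. This is no test between loci, since the loops of a locus are not replicates and can share anchors. The IGH median fell to 7.06 without loops of a single pixel, and to 5.30 with the interval widened by 100 kb, where TRA/TRD had 5.04. A ratio of 5 or more was reached by 14 of 17 IGH loops, by 5 in IGL, 6 in TRA/TRD, 3 in TRG, 1 in TRB and none in IGK, where the background over all loops was 28.9%. Since ratios in this list rise with span and depend on anchor width, each loop was also set beside the loops of its own span class and width. In the top 5% of its class (background 4.99%) were 10 IGH loops, 2 of TRA/TRD and 1 each of IGL and TRB.

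The strongest loops at the constant gene end of IGH were short. The first joined chr14:106080001-106085000 with chr14:106225001-106230000 across 145 kb, by 46 contacts against 0.900 expected, a ratio of 51.1. It rested on a single pixel, and 99.9% of 5 kb loops of 100 to 200 kb had a lower ratio. A second joined chr14:106045001-106050000 with chr14:106165001-106170000 across 120 kb by 102 contacts (exact Poisson 95% interval 83.2 to 124) against 2.57 expected, a ratio of 39.7 over 8 merged pixels. Another, from chr14:106130001-106135000 to chr14:106205001-106210000, had 13 contacts against 0.879 expected (ratio 14.8). All 3 lay within 230 kb of the lower end of the locus, and none of them shared an anchor with another loop.

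Longer loops tied this end to a point further in. From chr14:106020001-106025000 a loop of 390 kb ran to chr14:106410001-106415000 (14 contacts, ratio 8.10), where a loop of 270 kb from 142.5 kb inside the locus also ended (14 contacts, ratio 6.02). The longest IGH loop, of 470 kb, joined the first 10 kb of the interval with chr14:106470001-106480000 (30 contacts, ratio 5.08). That last anchor, merged from overlapping ones, held 3 loops, the most of any in IGH. The others were a loop of 60 kb to lower coordinates (10 contacts, ratio 2.95) and one of 300 kb to chr14:106770001-106775000 (20 contacts, ratio 16.9). For the 60 kb loop the authors' deposited table gives a donut q-value of 0.683. Between 106230001 and 106410000 no anchor was found, the longest such stretch of the locus (180 kb).

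The part of IGH farther from the constant genes had the other strong loops. Joining chr14:106975001-106980000 with chr14:107115001-107120000 was a 140 kb loop of 62 contacts against 1.89 expected (ratio 32.8). A 285 kb loop ran from chr14:106805001-106810000 to chr14:107090001-107095000 with 23 contacts against 0.864 expected (ratio 26.6). Both rested on a single pixel. From chr14:106650001-106655000 a loop of 190 kb had 27 contacts (ratio 22.6), from chr14:106865001-106870000 one of 265 kb had 25 (ratio 17.4), and from chr14:106550001-106555000 one of 370 kb had 18 (ratio 9.32). The broadest was the 80 kb loop between chr14:106860001-106865000 and chr14:106940001-106945000, with 54 contacts (ratio 22.5) merged from 18 pixels. A neighbouring loop of 40 kb had 44 contacts and an ordinary ratio of 2.92. The remaining 2, of 40 and 200 kb, had 25 and 12 contacts and ratios of 3.78 and 5.30. From the last anchor to the upper end of the interval, 155 kb held none.

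**Figure D3:**
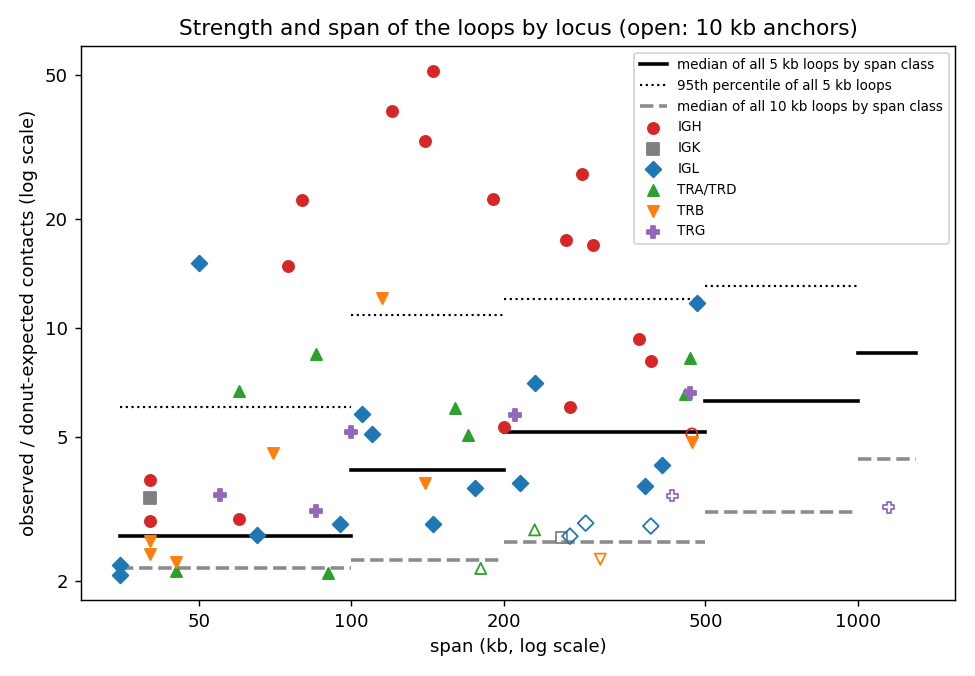
Ratio of observed to expected contacts (vertical, log scale) against span (horizontal, kb, log scale) for the 61 loops, by locus, with filled symbols for 5 kb anchors and open ones for 10 kb anchors. Lines give the median (solid) and 95th percentile (dotted) of all 5 kb loops and the median of all 10 kb loops (dashed) by span class; the dotted line is not drawn from 1 Mb on. Most IGH loops of 75 to 300 kb lie above the dotted line, and most other loops lie near the medians.

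High ratios in IGH went with low expectations more than with high counts. Its expected counts had a median of 1.93 contacts, against 6.23 in IGL, 6.90 in TRA/TRD, 9.15 in TRB, 8.35 in TRG and 7.37 in IGK. Set beside all loops of the same anchor width and a span within 10%, the IGH expectation was 0.256 times the median (range 0.0767 to 0.822). It was below 0.5 times in 15 of 17 IGH loops, both IGK loops, 1 each of IGL and TRA/TRD and none of TRB and TRG, with a background of 5.03% over all loops. The 41 loops of the lower IGH flank had a median of 0.912 times, and 1 of them was below 0.5. Observed counts exceeded the median of like-span loops in 5 of the 17 IGH loops and in 18 of all 61 (background 48.4%). The 120 kb loop of 102 contacts had 2.62 times that median, and the loop of ratio 51.1 had 1.28 times.

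On a log2 scale the median expectation of IGH loops against like-span loops was -1.97. Of 2733 windows of 1 Mb with at least 3 loop ends, 7 had a median over loop ends as low as this. Of these 7, 1 began at 107 Mb in IGH itself and held only 3 loop ends. The window from 106 to 107 Mb, which covers most of IGH, was not among them. Copy number, reads that map to several places and gaps in the assembly were not analysed here. Their part in the low expectations and high ratios of IGH was not tested, nor in the low expectations and few loops of IGK. The IGK loops had a median of -1.10, TRA/TRD -0.67, TRB -0.48, IGL -0.37 and TRG 0.04. TRG alone had most of its loops, 5 of 7, above the like-span median.

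**Figure D4:**
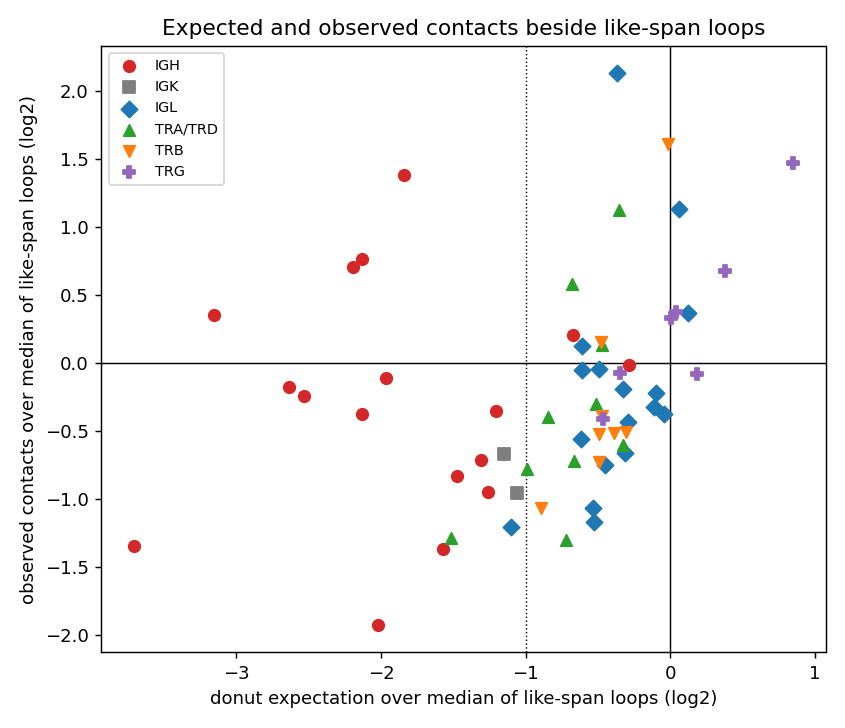
Donut expectation (horizontal) and observed count (vertical) of each loop over the median of loops of like span and width, both as log2, by locus. The dotted line marks 0.5 times the median expectation: 15 of 17 IGH loops and both IGK loops lie left of it, while observed counts of IGH loops fall on both sides of 0.

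IGK was nearly free of called loops. Its first joined chr2:89130001-89135000 with chr2:89170001-89175000 near the constant gene end, across 40 kb, by 28 contacts (exact Poisson 95% interval 18.6 to 40.5) against 8.26 expected (ratio 3.39, 76.2nd percentile of its class). The other ran 260 kb from chr2:89180001-89190000 to chr2:89440001-89450000, with 17 contacts against 6.48 (ratio 2.62). Its donut q-value in the authors' deposited table is 0.450. The remaining 850 kb up to the upper end, 70.8% of the interval, held no anchor. A loop of 4140 kb, not in the set, passed over the whole locus from chr2:87590001-87600000 to chr2:91730001-91740000, with 11 contacts against 0.149 expected in a single pixel. Its expectation was 0.118 times that of like-span loops. Whether reads at its anchors map to several places was not checked.

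In IGL 16 of 17 loops shared an anchor with another loop, close to the background of 89.7% over all loops, and 3 of its anchors held at least 3 loops each. The anchor chr22:22815001-22820000 sent 4 loops to higher coordinates: to chr22:22925001-22930000 (110 kb, 34 contacts, ratio 5.09), to chr22:23030001-23035000 (215 kb, 19 contacts, ratio 3.71), to chr22:23225001-23230000 (410 kb, 17 contacts, ratio 4.19) and to chr22:23295001-23300000 (480 kb, 46 contacts, ratio 11.7). The last is the longest IGL loop and ends 25 kb beyond the interval, on the side of the constant genes. At the constant gene end the merged anchor chr22:23220001-23230000 received 5 loops, all from lower coordinates, with ratios of 2.21 to 4.19 and spans of 35 to 410 kb. Another, chr22:23190001-23200000, sent 3 loops upward, among them one of 105 kb to chr22:23295001-23300000 (36 contacts, ratio 5.78) and one of 270 kb that ended 190 kb outside (28 contacts, ratio 2.65). Each of the 3 loops at chr22:23295001-23300000 came from IGL, the third from chr22:22915001-22920000 (11 contacts, ratio 3.65).

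The loop with most contacts of all 61 lay in the lower part of IGL, apart from those anchors and more than 500 kb from the constant gene end. It joined chr22:22700001-22705000 with chr22:22750001-22755000 across 50 kb by 184 contacts (exact Poisson 95% interval 158 to 213) against 12.2 expected. Its ratio of 15.1 was above that of 99.7% of 5 kb loops under 100 kb, and its count was 4.38 times the median of like-span loops. Unlike at the strong IGH loops, the expectation here was 0.776 times the like-span median. A 230 kb loop from chr22:22520001-22525000 (28 contacts, ratio 7.03) shared its upper anchor. Below, the first 140 kb of the interval held no anchor. The other IGL loops were weaker, at ratios of 2.07 to 3.60. They included loops of 35 kb with 43 contacts (between the merged anchors at 23190001 and 23220001, ratio 2.21) and 40 contacts (from chr22:22825001-22830000, ratio 2.07). One of 290 kb from chr22:22930001-22940000 had 40 contacts (ratio 2.88), and one of 390 kb to chr22:22940001-22950000 had 19 (ratio 2.83).

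In TRA/TRD each of the 6 loops with a ratio of 5 or more had an anchor between 22780001 and 22860000, toward the upper end, where TRAC lies in the gene table. The anchor chr14:22855001-22860000, 162.5 kb from the upper end, sent 3 loops upward: to chr14:22940001-22945000 (85 kb, 70 contacts against 8.30, ratio 8.43, 11 pixels), to chr14:23025001-23030000 (170 kb, 26 contacts, ratio 5.04) and to chr14:23320001-23325000 (465 kb, 23 contacts, ratio 8.26). The first was above 98.0% of its class. The second ended 5 kb beyond the interval, and the third 300 kb beyond, at anchors that held 5 and 4 loops in all. Just below, chr14:22780001-22785000 was joined to chr14:22840001-22845000 (60 kb, 57 contacts, ratio 6.66, 16 pixels, 96.2nd percentile) and to chr14:22940001-22945000 (160 kb, 25 contacts, ratio 5.98).

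Of the other 5 loops of TRA/TRD, 4 had ratios of 2.10 to 2.76. Farther from the constant end, chr14:22385001-22390000 was joined to chr14:22840001-22845000 across 455 kb by 9 contacts (exact Poisson 95% interval 4.12 to 17.1, ratio 6.56), the lowest count of the set. A 10 kb loop of 180 kb to chr14:22560001-22570000 had 23 contacts (ratio 2.16). The 210 kb that follow held no anchor. Near the constant end, loops of 45 kb (29 contacts, ratio 2.13) and 90 kb (13 contacts, ratio 2.10, to a point 75 kb outside) were the weakest. The only loop across the lower end, of 230 kb from chr14:21940001-21950000, had 21 contacts (ratio 2.76). A loop of 2100 kb with 12 contacts, not in the set, passed over the whole locus.

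In TRB the stronger loops again lay in the upper part, toward the end with the constant genes. The strongest joined chr7:142375001-142380000 with chr7:142490001-142495000 across 115 kb by 110 contacts (exact Poisson 95% interval 90.4 to 133) against 9.14 expected. Its ratio was 12.0 (96.6th percentile of its class) over 10 pixels, and its expectation was 0.989 times that of like-span loops. Against the vertical surroundings the ratio was 4.96. The same upper anchor held a 70 kb loop from chr7:142420001-142425000 (39 contacts, ratio 4.51). From chr7:142410001-142415000 loops of 140 kb (22 contacts, ratio 3.73) and 470 kb (10 contacts, ratio 4.83) left the locus, ending 30 and 360 kb beyond it at anchors that other loops share. The remaining 4 had ratios of 2.25 to 2.57 and 21 to 34 contacts. Of these 4, 2 of 40 and 45 kb lay in the lower part, 1 of 40 kb lay in the upper part, and 1 of 310 kb ran between the parts. No anchor lay between 142200001 and 142375000.

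TRG belonged to a loop pattern that reaches well below it. Its main anchor, chr7:38355001-38360000, received 3 loops from lower coordinates: from chr7:38255001-38260000 (100 kb, 89 contacts against 17.3, ratio 5.14, 21 pixels), from chr7:38300001-38305000 (55 kb, 52 contacts, ratio 3.45) and from chr7:38145001-38150000 (210 kb, 48 contacts, ratio 5.75, 14 pixels). Only the second stayed inside. The expectation of the first was 1.80 times that of like-span loops, the highest of the set. From 330 kb below the interval, the anchor chr7:37940001-37950000 was joined to chr7:38370001-38380000 (34 contacts, ratio 3.43) and to chr7:38405001-38410000 (20 contacts, ratio 6.60). A further loop of 85 kb came from chr7:38215001-38220000 (24 contacts, ratio 3.12). The longest of all 61 ran 1150 kb upward from chr7:38400001-38410000 to chr7:39550001-39560000 (18 contacts, ratio 3.19). In the gene table STARD3NL, EPDR1 and SFRP4 are the coding genes next below TRG, and AMPH is next above.

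Other properties of the 61 loops were set beside the list as a whole. A span of 500 kb or more was found in 1 of 61 (background 16.1%). Loops that shared an anchor with another loop numbered 43 of 61, against the same background of 89.7%. They were 7 of 17 in IGH, neither of the 2 in IGK, 16 of 17 in IGL, 7 of 10 in TRA/TRD, 6 of 8 in TRB and all 7 in TRG. Single-pixel loops numbered 9 of 61 (background 8.94%), and 5 of these 9 were in IGH, including the 3 of ratio 51.1, 32.8 and 26.6. All 4 q-values were at or below 0.1 in 41 of 61 (background 72.0%): 14 of 17 in IGH, 11 of 17 in IGL, 5 of 10 in TRA/TRD, 4 of 8 in TRB, 6 of 7 in TRG and 1 of 2 in IGK.

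Counts per locus depend on the ends of the intervals and on the threshold of the call. With each interval widened by 100 kb on both sides, IGH had 31 loops, TRA/TRD 21 and TRG 14. With all 4 q-values at or below 0.01, IGH had 13, IGL 6, TRA/TRD 5, TRG 5, TRB 3 and IGK 1. The share of the whole list that passes 0.01 was not computed, so these counts are not read as particular to the loci.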

How the data were processed

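Micro-C of 6 HAP1 replicates (1 group) was used as 1 deposited loop list, in which the replicates are pooled. BWA and hg19 are named per the submitters' processing notes, and juicer_tools 1.22.01 per the file headers. For pooling, sequencing depth, caller settings and reads that map to several places, nothing is stated in the labels. Per the file headers, the authors deposited for each loop an observed contact count (raw), 4 expected values on the same scale, computed by the caller from lower-left, donut, horizontal and vertical surroundings, and 4 q-values, with the number of merged pixels.

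From these, ratios, spans between anchor midpoints and references were computed with Python 3.11.15, numpy 2.4.6, pandas 2.3.3 and scipy 1.17.1, and drawn with matplotlib 3.10.9. Anchors were placed in a locus by an overlap of at least 1 bp. Span classes were split at 100, 200, 500 and 1000 kb. Anchors that overlapped were merged. For IGK, with 2 loops, the range stands for the interval of the median. In TRB and TRG, with 8 and 7 loops, the binomial interval is also the full range. The functions were checked on simulated data. Alternatives changed the interval, the overlap, the thresholds, the anchor width and the expected value. Low expectation, below 0.5 times that of like-span loops, was a rule set after seeing the data.

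The members, the measures and the rule for naming loops were chosen with earlier results of these data known. By that rule every loop of a locus with up to 10 was named, and in IGH and IGL the 5 strongest, the 5 with most contacts, the 3 longest, the top 5% of a class and anchors with at least 3 loops. The other loops described there were chosen after their values were seen. Gene order comes from the RefSeq GRCh38 table, of which no coordinate was used. No hg19 sequence was at hand, so none is printed.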

Additional observations from a re-analysis of the deposited data

How the results depend on the processing

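Of 235 alternative values, 207 stayed within 1.5 times the reported count or within the interval of the reported median, and 28 did not. Part of the 207 was fixed in advance. For IGK, TRB and TRG the interval of the median is the full range, which medians over fewer of the same loops cannot leave. In that range the TRG median span was 55 kb with both anchors inside and 100 kb with 5 kb anchors, against 210 kb. Placing anchors by their midpoint changed no value. The 207 are therefore not read as a measure of robustness. Widening the intervals by 100 kb gave 31 loops in IGH (20.8 per Mb), 21 in TRA/TRD (18.6 per Mb), 14 in TRG and 101 in all. Requiring both anchors inside left 6 in TRA/TRD (6.45 per Mb) and 1 in TRG (7.69 per Mb). With q-values at or below 0.01, IGK had 1 loop (0.833 per Mb), IGL 6 (6.74 per Mb, median ratio 6.40), TRA/TRD 5 (5.38 per Mb), TRB 3 (5.77 per Mb) and all loci 33 (6.65 per Mb, median ratio 7.03). IGH kept 13 and TRG 5, and the share of the whole list that passes was not computed. With 5 kb anchors only, IGK had 1 loop (0.833 per Mb). The median ratio was 2.89 in TRG with the horizontal expectation and 2.21 in TRB with the vertical one. Within the interval of the median, but more than 1.5 times below the reported value, it was 7.06 in IGH without single-pixel loops, 5.30 there with the widened interval, and 3.65 in TRA/TRD with the horizontal expectation. Without loops of low expectation it was 4.00 in IGH, from 2 loops, a filter that removes high ratios by construction and supports nothing. With loops of like span as the reference, the median percentile of the 2 IGK ratios was 76.2 against 65.6. Settings on intervals, anchors, q-values and low expectation add or remove loops by construction, and the cause of the shifts under another expected value was not tested. The like-span reference, windows of a locus's own length and the setting without low expectations were chosen after seeing the data. No paired analysis was possible because the replicates are pooled in 1 list, so leaving out a replicate was likewise not run. Depth limits single loops: the smallest count, 9, has a Poisson interval of 4.12 to 17.1.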

Other observations

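The stretch of equal length above IGL, 23270001 to 24160000 on chromosome 22, held 19 loops outside the set, with a median ratio of 6.07. Of these 19, 7 had an expectation below 0.5 times that of like-span loops (background 5.03% over all loops), the lowest at -4.57 on the log2 scale. Rearrangements and copy number of this stretch in HAP1 were not analysed, and their part in these values was not tested. In the stretch above TRA/TRD none of 38 loops had so low an expectation, and in the one above TRB 1 of 9 did. Below IGK it was 2 of 12, below TRG 1 of 4 and below IGH 1 of 41. There was none below IGL, TRA/TRD and TRB or above TRG. The 26 loops outside the set in the stretch below TRA/TRD had a median observed count of 60 contacts and a median expectation of 1.34 times that of like-span loops, against 24 contacts and 0.628 times inside the locus.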
